A study of Ovis aries and Bos taurus with 6 samples.

Results

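The microRNAs (miRNAs) miR-99a, miR-99b, miR-100, miR-125a and miR-125b were followed in small RNA of milk extracellular vesicles (EVs), membrane particles that cells shed into milk. Members were taken by name, without species prefix and arm suffix, from 1 count table per species. To these were added 2 sheep rows that have no miRBase name, 1 that lists the sequence of miR-100 and 1 that carries the seed of miR-125b. This gave 4 of 685 sheep rows and 5 of 779 cow rows, 9 of 1464 in all. The sheep group was 3 libraries from Ordos fine wool ewes and the cow group 3 libraries from Holstein cows, all female and in mid lactation, with no treatment named. The labels count 3 sheep as the source of the sheep libraries but do not say that each cow library came from its own animal, so cow replicates may differ by less than animals do. The cow libraries came from an earlier study, so a difference of species, of breed and of study cannot be told apart. The treatment field of the cow libraries names sheep milk, against their title, organism and breed, which were followed here.

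A miRNA guides silencing proteins to messenger RNAs that pair with its seed, bases 2 to 8 from the 5′ end. miR-99a, miR-99b and miR-100 share one seed and are known for targeting the mTOR growth pathway. miR-125a and miR-125b, the vertebrate relatives of the worm miRNA lin-4, share another and are known from blood stem cells, immune cells and many epithelia. In mammals the genes lie in clusters in which a member of each seed flanks a let-7 gene: miR-100, let-7a and miR-125b in one, miR-99a, let-7c and miR-125b in another, and miR-99b, let-7e and miR-125a in the last.

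The 4 sheep rows are shown because the results turn on how near these molecules are to each other. Sequences are those the sheep table lists, as DNA letters from 5′ to 3′, with the seed in capitals.
miR-99a: aACCCGTAgatccgatcttg
miR-100: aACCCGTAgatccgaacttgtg
miR-125a: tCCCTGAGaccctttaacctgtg
miR-125b: tCCCTGAGaccctaacttgtg

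Over the 20 bases of the miR-99a row, miR-100 differs from it by the single substitution A16T (the miR-100 base first, counted from 1 at the 5′ end), and the miR-100 row is longer by 2 bases at the 3′ end. miR-125a and miR-125b share their first 13 bases and last 4. No other sheep row held either seed at any position. The row of miR-125a was named by its seed and by not matching miR-125b, and its sequence is the textbook sequence of that miRNA. No sheep row used here carries the seed of miR-99b apart from those of miR-99a and miR-100, so miR-99b is described in cow only. The cow rows list no sequences. Reads of a member that the cow table counts under unnamed rows would not be seen here.

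The miRNA counts of a library ran from 1073914 to 2078695 in sheep and from 328527 to 556489 in cow. The 95% Wilson intervals of the members' shares reached at most 0.0333 percentage points to either side. They hold counting error within a library alone. Each read is treated as independent, although PCR copies of one molecule are counted as separate reads. A single row took 19.6% to 63.6% of a sheep library (miR-148a) and 51.2% to 68.9% of a cow library, where the row has no miRBase name. Shares of all counts therefore move with that row. The members and their let-7 mates are also compared in shares of the family or in ratios that do not contain it. Shares of the cell type markers, miR-10a and miR-10b are given of all counts alone. Adapter ligation favours some miRNAs over others, so the order of members within a library is an order of read counts.

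miR-100 was the leading member in sheep and the least abundant in cow. It took 30732, 37182 and 34060 counts in sheep replicates 1, 2 and 3, which is 2.77%, 1.79% and 3.17% of the miRNA counts. In cow replicates 1, 2 and 3 it took 435, 439 and 291 counts, or 0.132%, 0.0789% and 0.0751%. The groups lay far apart: miR-100 ranked 8 or 9 among all rows of each sheep library and between 42 and 55 among those of each cow library. The means were 2.58% ± 0.711 in sheep and 0.0954% ± 0.0321 in cow (SD, n = 3 each), 27.0 times higher in sheep. With the largest row of each library left out of the total, miR-100 took 3.44%, 4.92% and 5.11% in sheep and 0.322%, 0.162% and 0.242% in cow, 18.6 times higher in sheep by the means. In vesicle RNA, fewer vesicles of a cell type and less of a miRNA per vesicle cannot be told apart.

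miR-99a, which differs from miR-100 by that 1 base, went the other way. It had 1402, 900 and 831 counts in sheep replicates 1, 2 and 3 (0.126%, 0.0433% and 0.0774%) and 2022, 2743 and 1433 counts in cow replicates 1, 2 and 3 (0.615%, 0.493% and 0.370%). Every cow share was above every sheep share, and miR-99a was the most abundant member in cow, at ranks 15 to 18, against ranks 55 to 71 in sheep. The means were 0.0823% ± 0.0417 in sheep and 0.493% ± 0.123 in cow. On the deposited TPM scale, which divides by a larger library constant, miR-99a was at 142, 58.2 and 51.6 in sheep and 154, 218 and 115 in cow, and the groups overlapped. On that scale miR-100 was at 3117, 2406 and 2117 in sheep and 33.2, 34.9 and 23.4 in cow, a ratio of means of 83.5.

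miR-125b was higher in sheep as a share of counts, although its fold change turned to -0.57 without normalization factors. Its sheep counts were 6348, 5235 and 5411 (0.572%, 0.252% and 0.504%) and its cow counts 562, 811 and 507 (0.171%, 0.146% and 0.131%), with no overlap. The means were 0.442% ± 0.168 and 0.149% ± 0.0204 (SD, n = 3 each), a ratio of 2.97. That ratio was 1.95 with the largest row left out of the total and 8.90 in TPM, again with no overlap in either.

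As a share of all counts, with or without the largest row, and in TPM, miR-125a did not separate the species. Its counts were 10191, 2494 and 2313 in sheep (0.918%, 0.120% and 0.215%) and 1928, 1515 and 1432 in cow (0.587%, 0.272% and 0.369%). As shares of all counts, sheep replicate 1 lay above all cow libraries and the other sheep libraries lay below them. The sheep mean of 0.418% ± 0.436 fell to 0.168% without replicate 1, against 0.409% ± 0.161 in cow. With the largest row left out of the total, miR-125a took 1.14%, 0.330% and 0.347% in sheep. In cow it then took 1.43%, 0.557% and 1.19%, a ratio of means of 0.573. Sheep replicate 1 thus lay within the cow range on that scale. In TPM miR-125a was at 1034, 161 and 144 in sheep and 147, 120 and 115 in cow, with overlap as well. The highest sheep share was 7.65 times the lowest for miR-125a, against 1.77 times for miR-100, 2.27 times for miR-125b and 2.92 times for miR-99a. With the largest row left out of the total, the spread was 3.46 times for miR-125a. It was then 1.49 times for miR-100, 1.17 times for miR-125b and 1.32 times for miR-99a.

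miR-99b was listed in cow with 738, 736 and 535 counts, or 0.165% ± 0.0518. In cow the order by mean was miR-99a, miR-125a, miR-99b, miR-125b and miR-100. Neighbours kept this order in every cow library except miR-99b and miR-125b, which changed places in cow replicate 2, while miR-99a exceeded miR-125a by as little as 1.001 times in cow replicate 3. In sheep the order was miR-100, miR-125b, miR-125a and miR-99a. miR-125b and miR-125a changed places in sheep replicate 1, and the other neighbours differed by at least 2.77 times in every library.

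**Figure D1:**
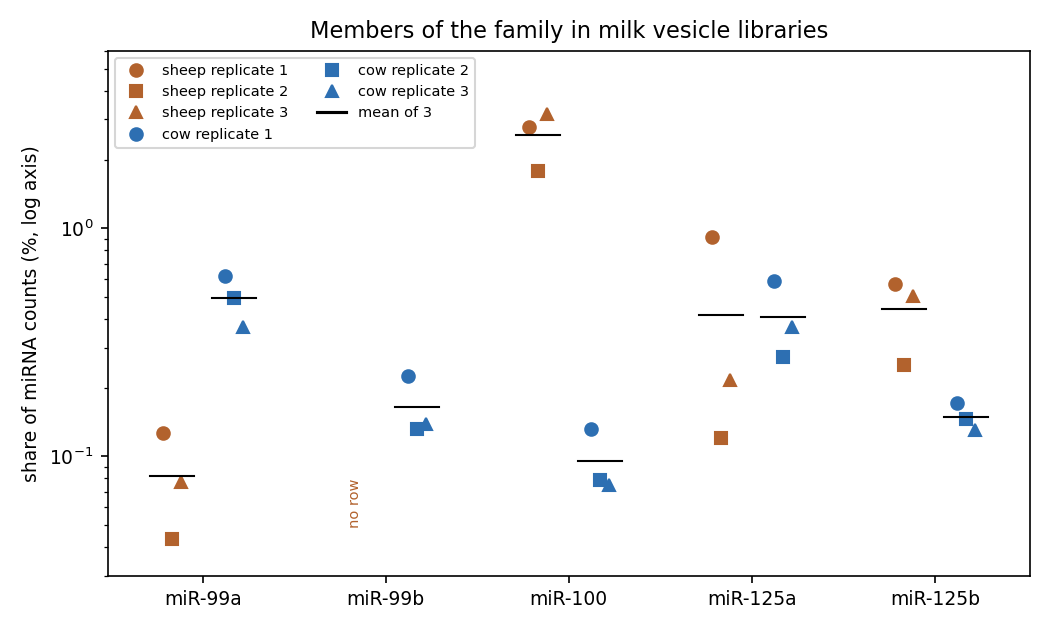
Share of miRNA counts (percent, log axis) of each member in the 3 sheep and 3 cow libraries, with 1 point per library and a line at the mean of 3. miR-100 lies at 1.79% to 3.17% in sheep and at or below 0.132% in cow, miR-99a is higher in all cow libraries, and sheep replicate 1 stands apart for miR-125a.

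The difference between species was tested with edgeR's quasi-likelihood test on 49 miRNAs joined between the tables. An adjusted p under 0.05 was reached by 23 of them (46.9%). Of the 49, 11 (22.4%) were called as higher in sheep and 12 (24.5%) as higher in cow. Of the 4 members tested 2 passed, 1 in each direction, a share near that background. The log2 fold change of miR-100, sheep over cow, was 3.98 ± 0.47 (SE, edgeR adjusted p = 8.15e-05). miR-99a was lower in sheep, at -3.50 ± 0.48 (edgeR adjusted p = 0.000194). miR-125a, at -0.94 ± 0.56, and miR-125b, at 0.67 ± 0.45, did not pass (edgeR adjusted p = 0.180 and 0.221). The median of the 4 members was -0.13, beside 0.04 over all 49. By shares of counts, 3 of the 4 members did not overlap between species, against 31 of 49 miRNAs (63.3%).

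In the edgeR fit above, neither miR-125 member was called with all 6 libraries, and both were called without sheep replicate 1. There miR-125a stood at -1.19, lower in sheep (edgeR adjusted p = 0.0132) and miR-125b at 1.46, higher in sheep (edgeR adjusted p = 0.00188). The median log2 fold change of the tested miRNAs went from 0.04 to 0.82 in that fit. Leaving out any one of the other libraries called neither. miR-100 ran from 3.80 to 4.84 and miR-99a from -3.64 to -2.87 with 1 library left out, and each passed in all 6 such fits.

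Scaling moved the median fold change and the split of the calls. The median of the tested miRNAs went from 0.04 to -1.13 without normalization factors and to 1.27 with limma on log2(TPM + 1), where the calls split 7 higher in sheep to 19 higher in cow and 27 to 6. Relative to the median of its own fit, miR-100 stood at 3.94 in the edgeR fit and between 3.25 and 5.12 in the 15 other settings. miR-99a stood at -3.54 and between -4.29 and -1.81. miR-125a ran from -2.01 to 0.29 and miR-125b from -0.03 to 2.03 on this relative scale. Without subtracting that median, miR-99a was -1.05 with limma on log2(TPM + 1) and -0.96 with log2(TPM + 10), on those scales, and lost its call (limma adjusted p = 0.168 and 0.127). miR-125a was 1.18 and 1.14 there, above 0, without passing, while without normalization factors it was called as lower in sheep (-1.97, edgeR adjusted p = 0.0200). miR-125b passed as higher in sheep in both (3.09 and 2.87) and with totals of the whole table (1.14, edgeR adjusted p = 0.0187), and was -0.57 without normalization factors. In all, miR-125a was called in 2 and miR-125b in 4 of the 15 other settings.

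By identical miRBase names alone, of the members only miR-125b was tested, among 38 miRNAs of which 20 (52.6%) passed. It was at 1.22 ± 0.56 (edgeR adjusted p = 0.0555) and passed in 7 of 15 other settings. In a wider join, added after the data were seen, further sheep rows were named from their listed sequence, and 48 of 101 miRNAs passed (47.5%). Of the 101, 25 (24.8%) were called with the higher level in sheep and 23 (22.8%) with the higher level in cow. There miR-100 was at 2.94 ± 0.57, miR-99a at -4.48 ± 0.63, miR-125a at -1.99 ± 0.66 and miR-125b at -0.29 ± 0.56. The first 3 passed (edgeR adjusted p = 0.000458, 3.37e-05 and 0.0205), so miR-125a was called as lower in sheep in this join. That call was made in 9 of 15 other settings of the wider join. It ended without sheep replicate 2, sheep replicate 3 or cow replicate 1 (-1.74, -1.78 and -1.69, edgeR adjusted p = 0.0586, 0.0891 and 0.0706). The call also ended with totals of the whole table (-1.63, edgeR adjusted p = 0.0835), and the sign turned with limma on TPM.

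**Figure D2:**
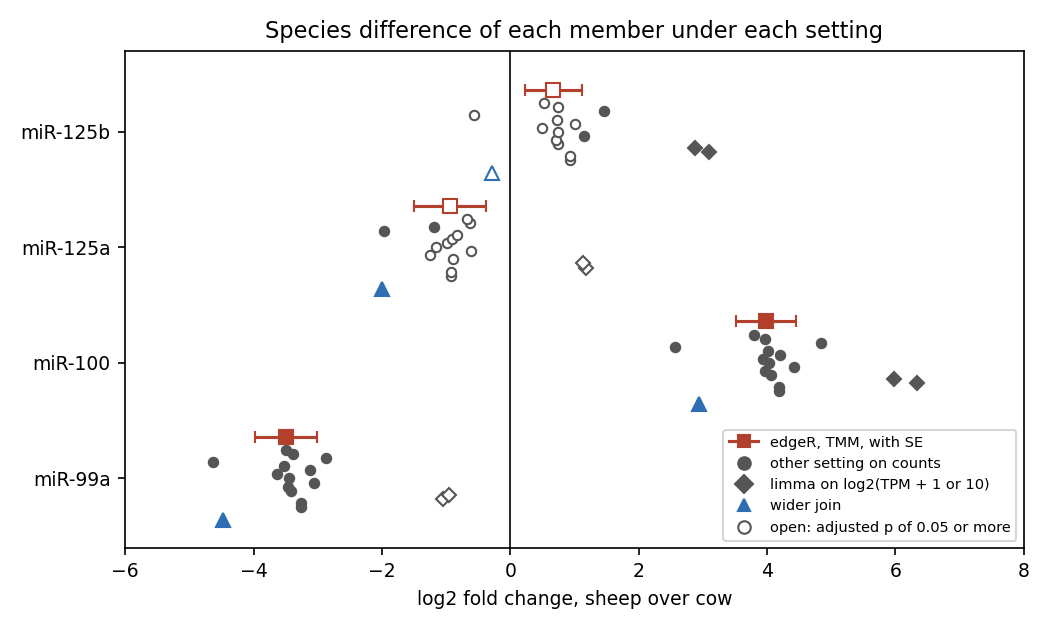
Log2 fold change of sheep over cow for the 4 members listed in both tables, under the edgeR fit with TMM factors (square, with SE), 15 other settings and the wider join. Filled symbols have an adjusted p under 0.05. miR-100 stays to the right of 0 and miR-99a to the left in all of them, while both miR-125 members have settings on either side of 0.

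Within the family, the make-up of the counts needs no scaling between libraries or species. miR-100 took 63.1%, 81.2% and 79.9% of the family counts in sheep replicates 1, 2 and 3 and 7.65%, 7.03% and 6.93% in cow replicates 1, 2 and 3. miR-99a took 2.88%, 1.96% and 1.95% in sheep and 35.6%, 43.9% and 34.1% in cow. Sheep replicate 1 had the lowest miR-100 and the highest miR-99a share among sheep, and no sheep library overlapped a cow library in either. The means of miR-100 were 74.7% ± 10.1 in sheep and 7.20% ± 0.390 in cow (SD, n = 3, exact two-sided permutation p = 0.1). That p is the smallest 3 against 3 allows, so no such test here can pass 0.05.

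miR-125a made up 20.9%, 5.44% and 5.43% of the family in sheep and 33.9%, 24.3% and 34.1% in cow, also without overlap (exact permutation p = 0.1). miR-125b held a like place in both species, at 12.4% ± 0.850 in sheep and 11.7% ± 1.59 in cow, a difference of 0.739 percentage points that was within the spread between libraries (exact permutation p = 0.6). miR-99b made up 12.5% ± 0.632 of the cow counts. Over the 4 members listed in both tables, the cow means were 43.3% for miR-99a, 8.24% for miR-100, 35.2% for miR-125a and 13.3% for miR-125b.

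**Figure D3:**
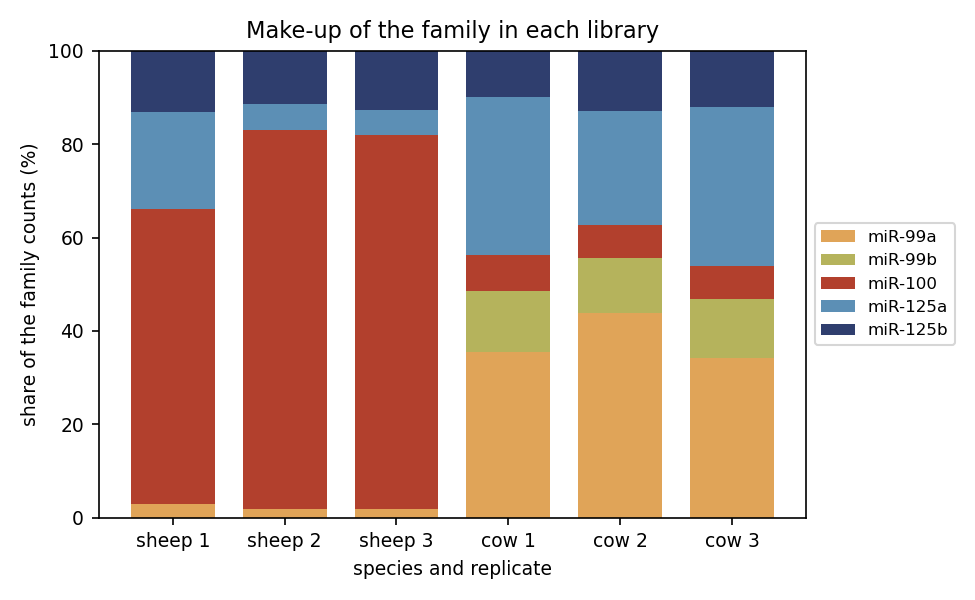
Make-up of the family counts in each library, as stacked shares of their sum. miR-100 fills 63.1% to 81.2% of the sheep bars and 6.93% to 7.65% of the cow bars, where miR-99a and miR-125a are the largest parts. miR-99b has no sheep row.

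Sums over the members of a seed that are listed in both tables were also taken. The reason is that the split between 2 molecules that differ by 1 base is uncertain to the extent that the counting let reads match either. miR-99b, which shares the seed of miR-99a and miR-100, was left out of their sum, and took 0.165% ± 0.0518 of the cow counts. miR-99a made up 4.36%, 2.36% and 2.38% of the summed miR-99a and miR-100 counts in sheep and 82.3%, 86.2% and 83.1% in cow. The sum itself took 2.66% ± 0.737 of the miRNA counts in sheep and 0.588% ± 0.152 in cow. Its log2 fold change in edgeR was 1.18 ± 0.48, between 0.02 and 3.78 in 15 other settings. It passed narrowly (edgeR adjusted p = 0.0497), and was called in 8 of those 15 settings and in 2 of the 6 fits with 1 library left out. Summing left miR-125a with miR-125b at 0.860% ± 0.572 in sheep and 0.559% ± 0.177 in cow, with overlap, and at a log2 fold change of -0.49 ± 0.46. The direction of that sum turned with limma on log2(TPM + 1) and log2(TPM + 10), to 2.06 and 2.01. Both passed as higher in sheep (limma adjusted p = 0.0136 and 0.0217). In TPM the groups did not overlap, at 886 ± 686 in sheep and 177 ± 18.4 in cow. miR-125a made up 61.6%, 32.3% and 29.9% of that sum in sheep and 77.4%, 65.1% and 73.9% in cow.

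All member rows together took 4.38%, 2.20% and 3.97% of the miRNA counts in sheep replicates 1, 2 and 3 and 1.73%, 1.12% and 1.08% in cow replicates 1, 2 and 3. With the largest row of each library left out of the total these became 5.45%, 6.06% and 6.40% in sheep and 4.21%, 2.30% and 3.49% in cow. Both sets put every sheep library above every cow library, and miR-100 alone made up most of the sheep sum. Set over the total of the 42 names shared by both tables, the order of the means turned, at 7.57% ± 4.71 in sheep and 12.1% ± 4.86 in cow, with overlap. Of the members only miR-125b is among those names, so this is a ratio to that total and not a share of it. Those names held 391127, 1506870 and 589511 counts in sheep replicates 1, 2 and 3. In cow they held 37027, 95300 and 28901, a smaller part of each cow library than of any sheep library.

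The let-7 genes that neighbour the members in their clusters were read beside them. In the sheep annotation of RefSeq (ARS-UI_Ramb_v3.0), MIR99A and MIRLET7C are neighbours. let-7a stood at 3.47% ± 0.377 of the miRNA counts in sheep and 0.611% ± 0.0954 in cow, and let-7c at 2.14% ± 0.716 and 0.0594% ± 0.0124. Both passed as higher in sheep in edgeR, let-7c by 4.27 ± 0.52 on the log2 scale and let-7a by 1.64 ± 0.52 (edgeR adjusted p = 8.15e-05 and 0.0201). The call of let-7a ended in 4 of the 6 fits with 1 library left out, at 1.39 to 1.65, without normalization factors, at 0.32, and in the wider join, at 0.70.

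The log2 ratio of miR-99a to its neighbour let-7c was -4.31, -4.93 and -5.07 in sheep replicates 1, 2 and 3 and 3.21, 2.88 and 3.03 in cow replicates 1, 2 and 3. let-7c thus far outnumbered miR-99a in every sheep library, and miR-99a outnumbered let-7c in every cow library. The species means lay 7.81 apart on the log2 scale, beside SDs of 0.40 and 0.17. let-7a, let-7c and other let-7 miRNAs also differ by single bases, so this ratio shares the limit on splitting reads.

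miR-100 to let-7a was at -0.46 ± 0.28 in sheep and -2.71 ± 0.50 in cow (log2, SD, n = 3). miR-99a to miR-100 was at -5.06 ± 0.52 and 2.39 ± 0.23. The ratio of miR-125a to miR-125b was 0.68, -1.07 and -1.23 in sheep and between 0.90 and 1.78 in cow, so the groups did not overlap even with sheep replicate 1. Each of these 4 pairs had an exact permutation p of 0.1, adjusted p = 0.1 over the 4.

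let-7e, the mate of miR-99b and miR-125a, was read in sheep from 2 rows without a miRBase name, a choice made after seeing the data. let-7e had 3280, 1496 and 1218 counts in sheep and 54, 89 and 24 in cow. miR-125a to let-7e was at 1.10 ± 0.47 in sheep and 5.03 ± 0.90 in cow on the log2 scale, without overlap (exact permutation p = 0.1). miR-99b to miR-125a, of the same cluster, was at -1.28 ± 0.21 in cow.

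**Figure D4:**
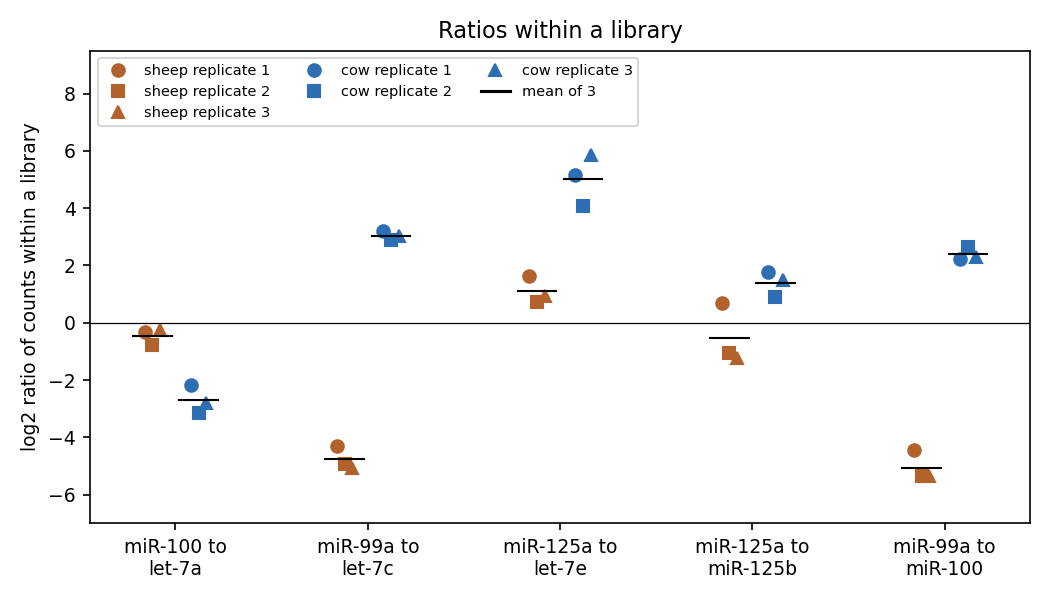
Log2 ratio of counts within a library for 5 pairs, with 1 point per library and a line at the mean of 3. The species do not overlap in any pair, and miR-99a to let-7c and miR-99a to miR-100 lie on opposite sides of 0 in sheep and cow.

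miR-10a and miR-10b, older relatives whose seed resembles that of miR-99 and miR-100, were also read. miR-10a, which shares an unbroken stretch of 11 bases with miR-100, took 0.221%, 0.0285% and 0.0764% of the miRNA counts in sheep and 0.0482% to 0.137% in cow. miR-10b was at 0.123% ± 0.0322 in sheep and 0.331% ± 0.171 in cow. Of the 5 cluster mates and relatives, 4 were tested among the 49 miRNAs, where 23 (46.9%) passed. Of these 4, 2 passed as higher in sheep (let-7a and let-7c), 1 as higher in cow (miR-10b, -2.13 ± 0.43, edgeR adjusted p = 0.00184, but 0.28 and not past the threshold with limma on log2(TPM + 1)), and miR-10a did not pass (-0.98 ± 0.70). In the wider join miR-10a passed as lower in sheep (-1.92 ± 0.73, edgeR adjusted p = 0.0397; 6 of 15 other settings), and let-7e, tested there alone, did not (1.69 ± 0.81, edgeR adjusted p = 0.0896; called in 6 of 15 other settings).

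Sheep replicate 1, in which miR-125a was high, also stood apart in markers of other cell types. The marker shares are of all counts. The largest row took 19.6% of these in sheep replicate 1 and 63.6% and 38.0% in sheep replicates 2 and 3. The red blood cell markers were read in sheep from miR-486 alone of 3 and in cow from all 3. They took 7.72% in sheep replicate 1 against 0.0741% and 0.0705% in sheep replicates 2 and 3 and 1.53% to 2.76% in cow. The liver marker miR-122 took 7.02% against 0.184% and 0.570%, and 0.0320% to 0.101% in cow. Striated muscle markers, 2 of 3 read in sheep and 3 of 3 in cow, took 2.64% against 0.0531% and 0.0743%, and at most 0.00304% in cow. Stromal markers, 4 of 4, took 0.712% against 0.171% and 0.233%, and 0.0557% to 0.128% in cow, and the endothelial marker miR-126 took 0.477% against 0.0502% and 0.123%, and 0.173% to 0.279% in cow.

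let-7e and miR-10a were high in the same library, let-7e at 0.295% of the counts, while the other sheep libraries held 0.0720% and 0.113%. Leukocyte markers, 5 of 5, amounted to 1.51%, 1.26% and 2.23% in sheep and 0.333% to 0.671% in cow. These markers differed in direction. In log2 levels scaled by library (wider join), miR-146a was at 13.2, 14.2 and 14.8 in sheep and 10.5, 10.5 and 8.62 in cow. There miR-150 was at 9.33, 5.68 and 5.79 in sheep and 13.6, 14.7 and 13.8 in cow. miR-155 was also higher, and miR-223 also lower, in every sheep library, while the arms of miR-142 were not alike. All but miR-146a were highest among sheep in replicate 1. Epithelial markers, 5 of 6 read in sheep and 6 of 6 in cow, took 20.3%, 63.9% and 38.4% in sheep and 0.112% to 0.222% in cow. In sheep this sum was nearly all miR-148a, the largest row, at 19.6%, 63.6% and 38.0% in replicates 1, 2 and 3. What the other epithelial markers added to it was largest in sheep replicate 1. miR-451, miR-144, miR-133a and miR-200a were not read in sheep, and no marker that was read was at 0 in all libraries of a species. The part of these cell types in the values of miR-125a was not tested.

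The opposite strand of the miR-125a hairpin also set sheep replicate 1 apart. The star row, the partner strand that is usually discarded, had 16, 148 and 113 counts in sheep replicates 1, 2 and 3. That is 0.157% (95% Wilson interval 0.0965 to 0.255), 5.60% (4.79 to 6.54) and 4.66% (3.89 to 5.57) of both strands. The mature strand was thus highest, and the star strand lowest, in the same library. The star row of miR-100 had 5 counts in sheep replicate 1 and 0 in replicates 2 and 3, for which 3 counts would be 0.00807% and 0.00881% of both strands and the upper 95% Wilson limits were 0.0103% and 0.0113%. No cow row is named as the 3p strand of a member.

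miRNAs with the most similar profile were sought over the 6 libraries, as the root mean square difference of log2 levels scaled by library (log2 CPM) and centred on their own mean, among 45 miRNAs outside the family. Nearest to miR-99a and miR-100 summed were let-7a (0.31), miR-30a-5p (0.45) and let-7b (0.57), beside a median of 1.61. Nearest to miR-125a and miR-125b summed were miR-181a (0.60), miR-103 (0.64) and miR-29a (0.65), beside a median of 1.66. All these profiles share libraries, depth and scaling, and much of the distance is the difference between species.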

How the data were processed

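Small RNA libraries of milk EVs were made with a commercial exosome isolation kit, a column RNA kit and TruSeq small RNA adapters, per the labels' protocols. cutadapt 1.14 and Bowtie were used, per the submitters' processing notes. Neither a genome build nor a counting tool nor a miRBase release was given in the sources used here. The deposited counts are whole reads per miRNA row. The deposited TPM of a row is its count over a library constant, larger than the miRNA total, with no length correction. Of the sheep and cow rows, 84 and 276 carry a miRBase name. No libraries held identical values.

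The members, lists, named miRNAs (all members, cluster mates, miR-10 and the 3 nearest profiles per seed) and tests were chosen with earlier results of these data known. Rows were joined by miRBase name, allowing a missing arm suffix where each table lists 1 arm, and the family's unnamed sheep rows were added. The 56 joined names held 45.0% to 79.7% of the counts of a sheep library and 8.98% to 19.3% of a cow library. The fold changes thus rest on a smaller part of the cow libraries than of the sheep libraries. No table of miRNA sequences was used, so the planned naming by RefSeq sequence was limited to the family. A wider join (108 names, 60 sheep rows named by textbook sequence) was added later, and marker miRNAs were read the same way.

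Counts were tested with edgeR 4.0.16 (quasi-likelihood, TMM, joined totals as library size, default filterByExpr, Benjamini-Hochberg over all tested, threshold 0.05). A check on simulated counts gave both species the same base profile, with changes balanced between directions. It therefore does not bear on the scaling between these species. Each SE was derived from the F statistic of its fold change. Shares and ratios (counts plus 0.5) were tested by exact permutation, two-sided (scipy 1.17.1). Alternatives were DESeq2 1.42.0, other factors, whole-table totals, no filter, limma 3.58.1 on log2(TPM + 1) and log2(TPM + 10), a replicate block and each library left out.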

Additional observations from a re-analysis of the deposited data

How the results depend on the processing

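miR-100 and miR-99a kept their direction in all 15 other settings of the 49-miRNA join and in the wider join, and their calls except miR-99a with limma on TPM. The number of miRNAs called was 20 to 31 in the settings on counts, 24 and 33 with limma on TPM and 48 in the wider join, which tests more miRNAs. With 1 library left out it was 20 to 30, and 17 to 23 in the join by miRBase name.

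The family's share of counts was 2.21 percentage points higher in sheep. It turned to -4.57 as a ratio to the total of the names shared by both tables, which hold only miR-125b of the members. With miRBase-named rows only, which leaves out miR-100 and miR-125a of sheep, it turned to -0.787. The share of miR-125b within the family turned from 0.739 to -0.920 over 4 members and ran from -0.144, without cow replicate 1, to 1.41 with 1 library left out.

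Directions also turned for miR-125a with limma on log2(TPM + 1) and log2(TPM + 10) (1.18 and 1.14), and for the sum of miR-125a and miR-125b (2.06 and 2.01). miR-125b turned where no normalization factors were used (-0.57, or -0.51 when joined by miRBase name) and in the wider join (-0.29). miR-10a turned with the same limma fits (1.33 and 1.13 in both joins) and, in the join by miRBase name, without cow replicate 2 (0.0899, within -0.859 to 0.0899 with 1 library left out), and miR-10b with those fits (0.28 and 0.26 in both joins). The cause was not tested.

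Replicate numbers did not pair the libraries: deviations of same-numbered sheep and cow libraries correlated at -0.0871, 0.212 and 0.105 for numbers 1, 2 and 3, over 49 miRNAs. With the replicate block 22 miRNAs were called, and 14 in the join by miRBase name, where miR-10b lost its call (-1.63), as it did without cow replicate 1 (-1.20). Naming by whole RefSeq sequence was not run, for want of that table, and no unnamed sheep row matched a named member, so adding such rows or keeping the largest row changed nothing. Depth does not limit the members, whose counts were at least 291.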
